A study of Mus musculus with 9 samples.

Results

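Interferon-stimulated genes are the genes that cells switch on when interferon binds its receptor. A list of 47 of them, chosen by symbol, was followed in mouse cells that carried 1 of 3 forms of the RNA helicase MOV10. Of the 47 symbols, 45 had a row in the deposited table of 15977 genes, and Ifitm1 and Oas3 had none. The cells were N2A, a line from a mouse neuroblastoma, and all 9 libraries came from a MOV10 knockout of it, 24 hours after transfection with 2 micrograms of DNA. The WT group received unaltered MOV10, the S970A group MOV10 with alanine at serine 970, which cannot be phosphorylated, and the S970D group MOV10 with aspartate there, whose charge resembles a phosphate. There were 3 libraries in each group and 9 in all. No untransfected or mock-transfected library was analysed here, so no value below is a change from the resting level of these cells. The labels do not say whether the knockout line is 1 clone, which promoter drives MOV10, or whether the replicates were separate cultures. The spread behind each p-value is therefore the one between these libraries, which may be technical.

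Type I interferons bind a receptor made of the chains IFNAR1 and IFNAR2. The receptor activates STAT2, which works with IRF9 at the interferon-stimulated response element in the promoters of target genes. The targets include proteins that block viral entry, sense or degrade viral RNA, add ADP-ribose or ubiquitin to other proteins, and present antigen on major histocompatibility complex class I. MOV10 is itself known as a restriction factor of retroviruses and retroelements.

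The values were log2 CPM, a logarithm of read counts corrected for library size, and library depth is unknown because the counts themselves were not part of the table. Transfected Mov10 held 14.90 to 15.71 log2 CPM in WT, 14.62 to 15.42 in S970A and 14.57 to 14.84 in S970D, so every S970D library held less of it than every WT library. Within S970A, replicate 1 held 14.62, inside the S970D range, and replicates 2 and 3 held 15.24 and 15.42, inside the WT range. Between S970D and WT, the form of MOV10 and the amount of its RNA therefore cannot be told apart. On the first principal component of all other genes, S970A replicate 1 scored 0.40, among the S970D libraries (0.25 to 0.44), while the other S970A libraries lay at -0.22 and -0.33, inside the WT range (-0.46 to -0.04). Results that rest on that library are given with and without it. Of 13 neuroblastoma markers, 12 had a row, led by Hand2 (mean 9.75 log2 CPM) and Tubb3 (9.50), while Th and Dbh were low (-1.09 and -1.29). The 12 markers summed to 2010 to 2320 CPM in WT, 1990 to 3290 in S970A, with replicate 1 the highest, and 2970 to 3560 in S970D. Of 14 macrophage and leukocyte markers, 12 had no row, among them Ptprc, Csf1r and Adgre1. The other two, Cd74 and Cd68, summed to 11.3 to 21.0 CPM in WT, 15.8 to 38.5 in S970A and 30.1 to 39.6 in S970D. Endothelial markers (3 of 8 with a row) summed to 9.29 to 10.7, 10.6 to 11.4 and 10.6 to 18.0 CPM, and fibroblast markers (4 of 9) to 53.0 to 77.1, 42.4 to 74.3 and 41.4 to 51.2 CPM. Between WT and S970D the endothelial sums overlapped and the other sums did not. The part of these sums and of Mov10 in the results below was not tested. In bulk RNA, fewer cells of a type and less RNA per cell cannot be told apart. Of 21 interferon ligand genes, 1 had a row, the type I interferon gene Ifnz, between -4.09, the lowest value of the table, and -1.54 log2 CPM.

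Some of the promoters show the sequence through which interferon-stimulated genes are known to answer interferon. RefSeq promoter sequences (250 bases before to 50 after a gene start, build GRCm38.p6) were found for 37 of the 45 genes, with 46 promoters, and none for Ifi27, Mx1, Mx2, Oas2, Parp9, Parp14, Tap2 and Rtp4. The core of the response element, searched as GAAANNGAAA on both strands with overlapping matches allowed, was present in 15 of the 46 promoters (32.6%), against 3.44% of all 32851 promoters. The gamma-activated site, searched as TTCNNNGAA, was present in 11 promoters (23.9%), against 8.3% of all. The windows below belong to the 8 genes with the core whose p in S970D against WT was smallest. They are written along the gene's strand with 10 flanking bases where the promoter allows, and capitals mark the core, which reads TTTCNNTTTC where it lies on the other strand.
Ifitm2 (chr7:140955988-140956017, minus strand): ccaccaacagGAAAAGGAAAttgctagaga
Trim21 (chr7:102565444-102565479, minus strand): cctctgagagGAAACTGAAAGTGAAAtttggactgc
Gbp3 (chr3:142559989-142560024, plus strand): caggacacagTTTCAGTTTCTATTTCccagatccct
Shisa5 (chr9:109054888-109054915, plus strand, 1 of 5 RefSeq starts): taagattcgaTTTCCTTTTCtttgaaag
Ifit1 (chr19:34640775-34640823, plus strand): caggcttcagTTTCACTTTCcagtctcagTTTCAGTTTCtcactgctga
Ifitm3 (chr7:141010706-141010752, minus strand): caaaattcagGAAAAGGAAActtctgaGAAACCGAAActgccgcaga
Rsad2 (chr12:26456553-26456582, minus strand): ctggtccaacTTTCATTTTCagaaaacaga
Bst2 (chr8:71537577-71537612, minus strand): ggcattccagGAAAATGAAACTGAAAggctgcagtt
Trim21, Gbp3, Ifit1, Ifitm3 and Bst2 each carry 2 copies of the core, which overlap in Trim21, Gbp3 and Bst2. A match is a run of letters and not a shown binding site. Genes with the core went both ways between S970D and WT: 4 of the 15 were higher and 11 lower, with a median log2 fold change of -0.25. Of the 22 genes with a promoter and no match, 7 were higher and 15 lower, with a median of -0.20.

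The 45 genes covered a wide range of levels, and 35 had a mean of at least 1 log2 CPM over the 9 libraries. Per kilobase of transcript, B2m, the light chain of class I molecules, was highest at 8.65 log2 CPM per kilobase, followed by the membrane-associated protein genes Ifitm2 (8.12), Ifi27 (6.12), Bst2 (5.95) and Ifitm3 (5.39). Several genes widely read as signs of a strong interferon response were low on the same scale: Ifit1 at -0.82, Rsad2 at -1.03, Mx1 at -2.31, Ifit3 at -2.94, Oas2 at -3.59 and Ifi44 at -4.09. Others of the list were higher on it, such as Oasl2 at 1.78, Oas1a at 1.75 and Xaf1 at 1.11. The median level of the list was 3.34 log2 CPM, against 3.90 over all genes. No member was at the table's lowest value in any library, and the lowest member value was that of Ifi44 at -3.16 in S970A replicate 1. Summed over the 45 genes, the WT libraries held 1440, 1250 and 1220 CPM, the S970A libraries 1530, 1300 and 1280, and the S970D libraries 1480, 1510 and 1370. The S970D and WT sums overlapped, and WT replicate 1 and S970A replicate 1 were the highest of their groups.

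**Figure D1:**
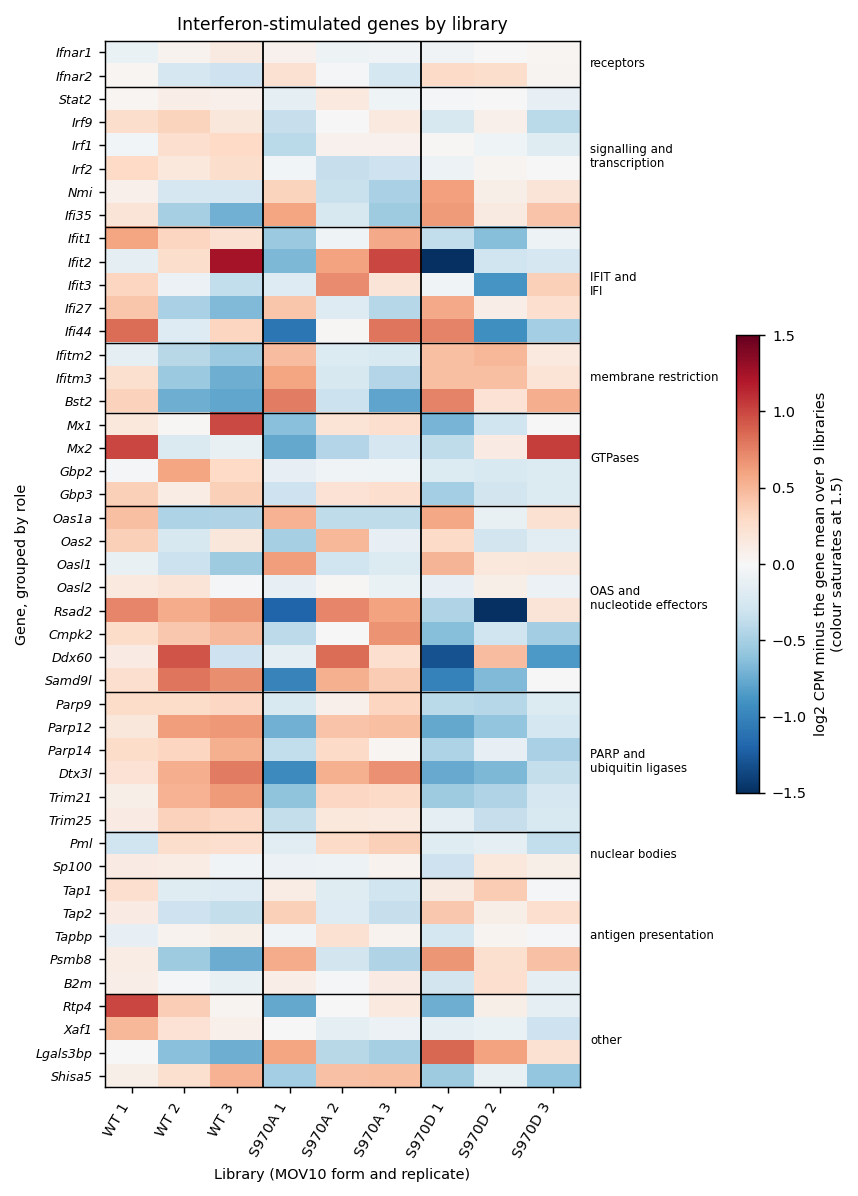
log2 CPM of 45 interferon-stimulated genes (rows, grouped by role) in 9 libraries (columns), as the difference from each gene's mean over the libraries; the colour saturates at 1.5. The PARP and ubiquitin ligase genes are above their mean in the WT libraries and below it in S970D, the membrane restriction genes mostly the other way, and in these rows S970A replicate 1 mostly has the colours of the S970D libraries.

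S970D against WT asks whether RNA levels differ when serine 970 is replaced by a residue that resembles its phosphorylated state. The list split. The measured ADP-ribosyltransferase and ubiquitin ligase genes stood lower in S970D, some by about 2-fold (Parp12, ratio 0.491, and Dtx3l, ratio 0.464). The 3 membrane restriction genes stood higher, as did single genes of other roles such as Lgals3bp (ratio 2.02) and Psmb8 (ratio 1.79). Part of this split went with transcript length and GC content over the whole table. With that trend taken out, Ifitm2, Ifitm3 and Bst2 were at 0.02, 0.16 and 0.15 on the log2 scale. Lgals3bp was then at 0.62, Psmb8 at 0.53, Parp12 at -1.0 and Dtx3l at -0.64. The receptor chain Ifnar1 and the transcription factor Stat2 differed little. Of the 45 genes, 14 were above 0 and 31 below, with a median log2 fold change of -0.25 and a range of -1.35 to 1.01, beside a median of 0.00 over all genes.

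None of the 45 passed at a limma adjusted p under 0.05 in the fit of all 9 libraries, where 0.00626% of all genes passed (1 gene). At an unadjusted p under 0.05 the same limma fit held 20 of the 45, of which 6 were higher and 14 lower, against 44.3% of all genes, and the smallest limma adjusted p in the list was 0.0756. The replicate numbers were taken as pairs in this comparison, and with the number as a block 11 members rose (24.4%, against 22.2% of all genes) and 12 fell (26.7%, against 23.3% of all genes). The block was fitted on all 9 libraries, so it paired the S970A libraries too, S970A replicate 1 among them. Without S970A replicate 1 and without the block, 8 rose (17.8%, against 22.8% of all genes) and 14 fell (31.1%, against 24.9%). Of these calls 19 genes were shared by both fits, which give the same fold changes in this comparison and differ only in the spread. In both fits the shares of members called were near those of all genes in both directions, so these counts set the list little apart from the rest of the table. In the fit of 9 libraries the spread also comes from the S970A libraries, which are outside this comparison. With only the 6 libraries compared and no block, 19 of the 45 members and 6727 of the 15977 genes passed at a limma adjusted p under 0.05. The groups did not overlap in 6 members that were higher (13.3%, against 27.9% of all genes) and in 19 that were lower (42.2%, against 29.3%). These shares lay further from those of all genes than the shares of members called. An exact two-sided permutation test of 3 against 3 cannot give a p below 0.1, and Parp9, the member with the smallest limma p, gave 0.1.

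**Figure D2:**
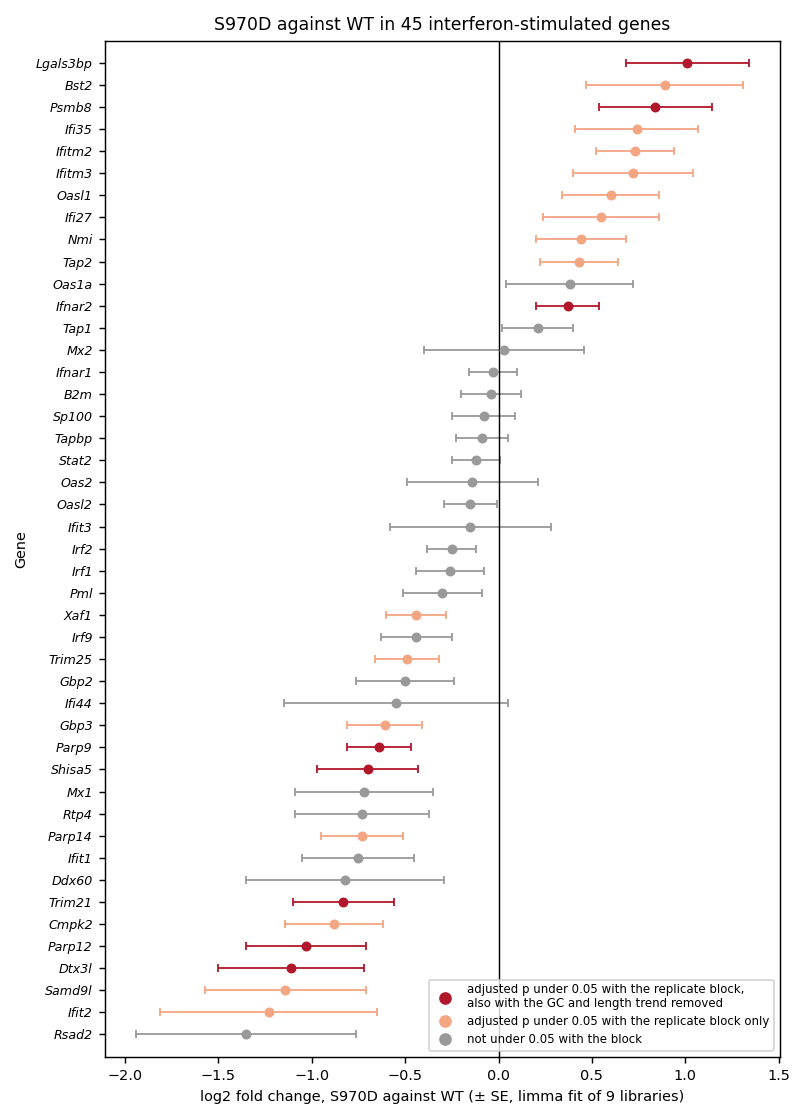
log2 fold change of S970D against WT for 45 interferon-stimulated genes, with SE from the limma fit of 9 libraries; colours show which genes passed at a limma adjusted p under 0.05 with the replicate block, and with the block once the GC and length trend had been taken out. Rsad2 (-1.35) and Lgals3bp (1.01) mark the ends of the range, and 31 of the 45 points lie below 0.

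The receptor chains differed from each other. Ifnar1 held 4.52, 4.67 and 4.75 log2 CPM in WT replicates 1, 2 and 3, 4.68, 4.54 and 4.57 in S970A, and 4.57, 4.63 and 4.65 in S970D. All 9 values lay within a narrow span and the groups overlapped, with a difference of -0.03 ± 0.13 (SE) between S970D and WT on the log2 scale. Ifnar2 held 4.74, 4.45 and 4.40 log2 CPM in WT, 4.94, 4.68 and 4.44 in S970A, and 4.99, 4.97 and 4.75 in S970D. Each S970D library was above each WT library, by a small margin over WT replicate 1. The difference of 0.37 ± 0.17 had a limma adjusted p of 0.124, and of 0.0375 with the replicate block.

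Of the 6 genes of signalling and transcription, none passed in the fit of 9 libraries, and Ifi35 and Nmi rose with the block. Stat2, a transcription factor gene, held 5.16, 5.23 and 5.20 log2 CPM in WT, 4.99, 5.28 and 5.06 in S970A, and 5.11, 5.12 and 5.01 in S970D. The S970D values lay just under the WT values, and the difference was -0.12 ± 0.13 (SE; limma adjusted p = 0.481). Irf9, the DNA-binding partner of STAT2, held 3.25, 3.32 and 3.16 log2 CPM in WT, 2.64, 3.00 and 3.13 in S970A, and 2.75, 3.06 and 2.59 in S970D. It was lowest in S970D replicate 3 and S970A replicate 1, and both mutant groups lay below all WT libraries. For S970D against WT, Irf9 was at -0.44 ± 0.19 (limma adjusted p = 0.103, and 0.0418 when S970A replicate 1 was left out). Irf1, an activator of interferon targets, was at -0.26 ± 0.18 (limma adjusted p = 0.273) with overlapping groups. Ifi35 and Nmi, which encode proteins that bind each other, were at 0.74 ± 0.33 and 0.44 ± 0.24, with limma adjusted p-values of 0.111 and 0.180, and of 0.013 and 0.0326 with the block. With the GC and length trend taken out they were at 0.19 and 0.36, and both calls ended (limma adjusted p with the block 0.281 and 0.0692).

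The 6 genes for PARP enzymes and ubiquitin ligases were all lower in S970D, with a median log2 fold change of -0.78 and no overlap between S970D and WT in any of them. None passed in the fit of 9 libraries, and all 6 fell with the block (against 23.3% of all genes) and also without S970A replicate 1 (against 24.9%), while 29.3% of all genes were lower without overlap. With the GC and length trend taken out, Parp14 moved to -0.20 and Trim25 to -0.21 and their calls with the block ended (limma adjusted p = 0.394 and 0.171). Parp9, which encodes an ADP-ribosyltransferase family member that forms a complex with the ubiquitin ligase DTX3L, held 3.88, 3.88 and 3.91 log2 CPM in WT, 3.37, 3.68 and 3.93 in S970A, and 3.20, 3.18 and 3.40 in S970D. WT was tight, and S970A was spread from the S970D level in replicate 1 to the WT level in replicate 3. S970D differed from WT by -0.64 ± 0.17 (SE; limma adjusted p = 0.0756, and 0.011 with the block). Dtx3l held 3.29, 3.62 and 3.86 log2 CPM in WT, 2.12, 3.61 and 3.76 in S970A, and 2.32, 2.40 and 2.72 in S970D. S970A replicate 1 was lower than every S970D library. Dtx3l was at -1.11 ± 0.39 (limma adjusted p = 0.078, and 0.0136 with the block). Parp9 (plus strand) and Dtx3l (minus strand) overlap head to head on chromosome 16 of GRCm38, with starts 681 bases apart at 35938470 and 35939151, so reads of the shared stretch can be told apart only by strand. The library kit was stranded, and the strand setting used in counting is not given in the sources used here.

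Parp12, a mono-ADP-ribosyltransferase gene that restrains RNA viruses, held 4.52, 4.97 and 5.0 log2 CPM in WT, 3.63, 4.78 and 4.80 in S970A, and 3.58, 3.76 and 4.08 in S970D. S970A replicate 1 stood with the S970D libraries and the other two S970A libraries with WT. The difference from WT to S970D was -1.03 ± 0.32 (SE; limma adjusted p = 0.0756, and 0.00732 with the block). Parp14, the largest of these enzymes' genes by transcript length, held 1.42, 1.46 and 1.67 log2 CPM in WT, 0.77, 1.43 and 1.17 in S970A, and 0.68, 1.02 and 0.65 in S970D. Trim25, the ligase gene known for its part in RIG-I signalling, held 5.28, 5.5 and 5.47 log2 CPM in WT, 4.80, 5.32 and 5.31 in S970A, and 5.02, 4.81 and 4.93 in S970D. In both genes the S970D libraries lay under all WT libraries, and S970A replicate 1 was the lowest of its group. Trim21, whose protein is an antibody receptor inside the cell and a ubiquitin ligase, was at -0.83 ± 0.27 (SE), Parp14 at -0.73 ± 0.22 and Trim25 at -0.49 ± 0.17, with limma adjusted p-values from 0.0756 to 0.0764. With the block these 3 genes had limma adjusted p-values from 0.00933 to 0.033.

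Among the effectors that act on viral RNA and nucleotides, Rsad2 and Cmpk2 were lower together. Cmpk2, a nucleoside monophosphate kinase gene, held 1.85, 1.98 and 2.06 log2 CPM in WT, 1.18, 1.58 and 2.24 in S970A, and 0.93, 1.27 and 1.05 in S970D. Its S970D values lay under all WT values, and the difference was -0.88 ± 0.26 (SE; limma adjusted p = 0.0756, and 0.0163 with the block). With the GC and length trend taken out, Cmpk2 was at -0.60 (limma adjusted p with the block 0.0592). Rsad2, which encodes viperin, an enzyme that makes a chain-terminating nucleotide, held 1.77, 1.59 and 1.70 log2 CPM in WT, -0.16, 1.77 and 1.64 in S970A, and 0.58, -0.79 and 1.23 in S970D. WT was even while S970D varied widely (SD 1.03, n = 3), and S970A replicate 1 stood apart from its group. The difference of -1.35 ± 0.59 had a limma adjusted p of 0.113, of 0.0791 with the block, and of 0.0312 without S970A replicate 1. Their starts lie 12752 bases apart on chromosome 12, at 26456452 for Rsad2 and 26469204 for Cmpk2, on opposite strands.

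The 2′-5′ oligoadenylate synthetase family did not move as 1 group. Oasl1, known to restrain translation of Irf7, was at 0.60 ± 0.26 (SE; limma adjusted p = 0.107, and 0.0251 with the block). With the GC and length trend taken out, Oasl1 was at 0.16 (limma adjusted p with the block 0.381). Oas1a was at 0.38 ± 0.34, Oas2 at -0.14 ± 0.35 and Oasl2 at -0.15 ± 0.14, none of which passed with or without the block. Oasl2 was the family's most abundant member by log2 CPM, with 3.57, 3.61 and 3.40 in WT, 3.29, 3.44 and 3.32 in S970A, and 3.30, 3.51 and 3.33 in S970D, a narrow range in which the groups overlapped. Samd9l, an antiviral translation inhibitor gene, was at -1.14 ± 0.43 and fell with the block (limma adjusted p = 0.0132). Ddx60, a helicase gene near the bottom of the range, held -1.44, -0.62 and -1.87 log2 CPM in WT, -1.71, -0.72 and -1.31 in S970A, and -2.87, -1.10 and -2.42 in S970D, so its groups overlapped.

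The IFIT genes, whose proteins bind foreign RNA ends and translation factors, were among the least abundant members. Ifit1 held 1.19, 0.92 and 0.82 log2 CPM in WT, 0.04, 0.53 and 1.16 in S970A, and 0.22, -0.05 and 0.52 in S970D. The S970D libraries were below all WT libraries, with a difference of -0.75 ± 0.30 (SE; limma adjusted p = 0.0952, and 0.0334 without S970A replicate 1). Ifit2 was at -1.23 ± 0.58 (limma adjusted p = 0.129, and 0.011 with the block), and Ifit3, at a mean of -2.13 log2 CPM, at -0.15 ± 0.43. Ifi44 held -1.24, -2.27 and -1.75 log2 CPM in WT, -3.16, -2.06 and -1.27 in S970A, and -1.33, -2.99 and -2.58 in S970D, with no order among the groups. Fold changes of such low genes are understated, since the equal lowest value in all libraries shows that a prior count was added. Ifi27, a gene for a small hydrophobic protein and the most abundant of the group, held 6.5, 5.6 and 5.42 log2 CPM in WT, 6.5, 5.89 and 5.66 in S970A, and 6.65, 6.18 and 6.34 in S970D. WT replicate 1 lay within the S970D range, and the difference was 0.55 ± 0.31 (limma adjusted p = 0.193, and 0.0236 with the block).

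Of the GTPase genes, Gbp3, which encodes a guanylate-binding protein, held 2.37, 2.12 and 2.37 log2 CPM in WT, 1.70, 2.23 and 2.26 in S970A, and 1.5, 1.74 and 1.8 in S970D. It differed between S970D and WT by -0.61 ± 0.20 (SE; limma adjusted p = 0.0756, and 0.0302 with the block), without overlap. Gbp2 was at -0.50 ± 0.26 and Mx1 at -0.72 ± 0.37, and neither passed with the block. Mx2, at 0.03 ± 0.43, ranged from 0.50 to 1.72 log2 CPM within WT alone. GENCODE lists Mx1 as protein coding and Mx2 as a polymorphic pseudogene, while RefSeq lists Mx1 as a transcribed pseudogene.

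**Figure D3:**
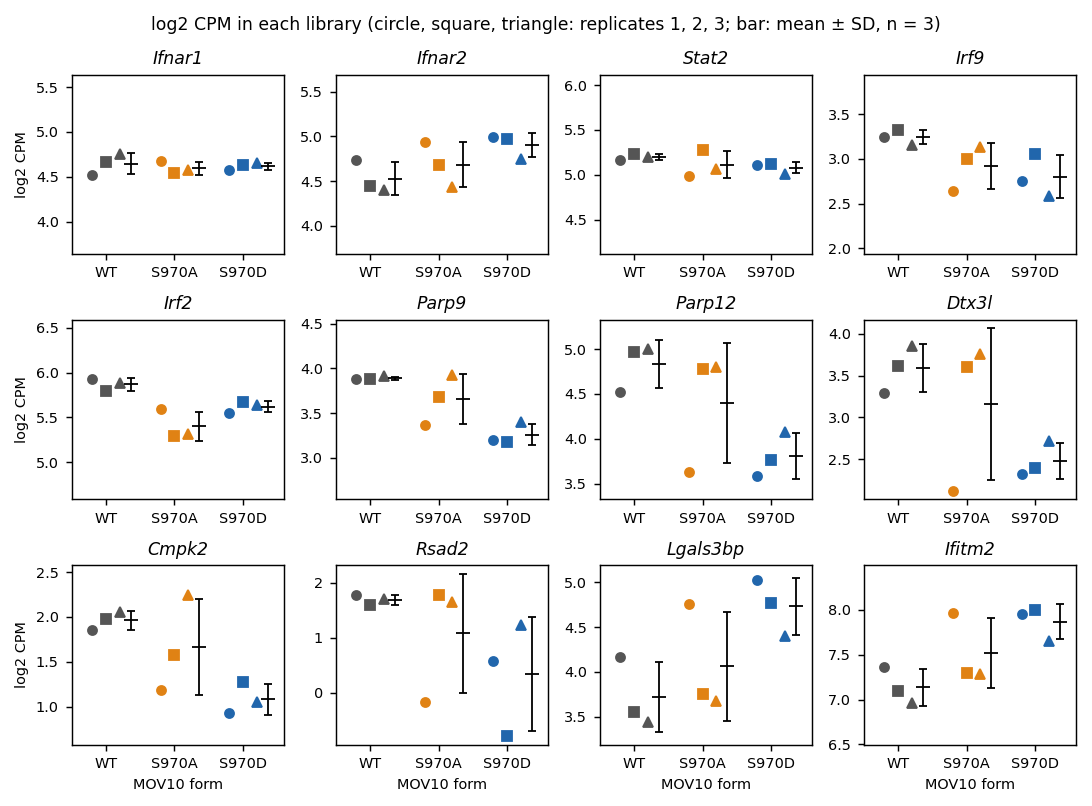
log2 CPM of 12 interferon-stimulated genes in each library, by MOV10 form; circles, squares and triangles are replicates 1, 2 and 3, and bars show the mean ± SD (n = 3). Ifnar1 and Stat2 are level, Parp9, Parp12, Dtx3l, Cmpk2 and Rsad2 are lower in S970D than in WT, and Lgals3bp and Ifitm2 higher. The S970A circle (replicate 1) lies within the S970D points for all the genes shown but Ifnar1, Stat2 and Dtx3l.

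The 3 measured genes for membrane proteins that hold back virus particles were all higher in S970D, with a median log2 fold change of 0.73, and all 3 rose with the block, as 22.2% of all genes did. With the GC and length trend taken out, Ifitm2 moved to 0.02, Ifitm3 to 0.16 and Bst2 to 0.15, and all 3 calls ended (limma adjusted p with the block 0.899, 0.374 and 0.516). Ifitm2, which hinders fusion of entering viruses, held 7.36, 7.09 and 6.96 log2 CPM in WT, 7.97, 7.30 and 7.28 in S970A, and 7.96, 8.0 and 7.65 in S970D. The S970D libraries were above all WT libraries, and S970A replicate 1 reached their level. The difference was 0.73 ± 0.21 (SE; limma adjusted p = 0.0756, and 0.00814 with the block). Ifitm3 was at 0.72 ± 0.32 and Bst2, which encodes the virion tether tetherin, at 0.89 ± 0.42, with limma adjusted p-values of 0.112 and 0.131, and of 0.0174 and 0.0165 with the block. WT replicate 1 overlapped the S970D range of both genes, with 5.07 log2 CPM of Ifitm3 and 5.96 of Bst2. Ifitm2 and Ifitm3 are close paralogs, and reads may be divided between them in a way the table does not show.

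Antigen presentation genes were divided. Psmb8, the immunoproteasome subunit gene, held 6.03, 5.38 and 5.18 log2 CPM in WT, 6.47, 5.64 and 5.47 in S970A, and 6.58, 6.16 and 6.36 in S970D. In S970D it was above every WT library, with a difference of 0.84 ± 0.30 (SE; limma adjusted p = 0.0783, and 0.00743 with the block). Tap2, a chain of the peptide transporter, was at 0.43 ± 0.21 and rose with the block (limma adjusted p = 0.0306), while the other chain, Tap1, was at 0.21 ± 0.19 and did not pass. With the GC and length trend taken out, Tap2 was at 0.14 (limma adjusted p with the block 0.366). B2m held 8.53, 8.42 and 8.32 log2 CPM in WT, 8.53, 8.41 and 8.55 in S970A, and 8.16, 8.69 and 8.28 in S970D. Its groups overlapped around a difference of -0.04 ± 0.16, and Tapbp, the tapasin gene, was at -0.09 ± 0.14.

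Of the genes for nuclear bodies and other functions, Lgals3bp, a secreted glycoprotein gene, had the largest rise of the list. It held 4.17, 3.55 and 3.44 log2 CPM in WT, 4.76, 3.75 and 3.67 in S970A, and 5.03, 4.77 and 4.40 in S970D. The difference was 1.01 ± 0.33 (SE; limma adjusted p = 0.0756, and 0.00642 with the block), and S970A replicate 1 lay within the S970D range. Shisa5, a membrane protein gene known for a part in apoptosis, held 6.12, 6.28 and 6.56 log2 CPM in WT, 5.53, 6.47 and 6.49 in S970A, and 5.5, 5.92 and 5.45 in S970D, a difference of -0.70 ± 0.27 (limma adjusted p = 0.0888, and 0.0262 with the block). Xaf1 was at -0.44 ± 0.16 and fell with the block (limma adjusted p = 0.0425), and Rtp4 at -0.73 ± 0.36 did not pass. Pml, the core gene of PML nuclear bodies, held 4.19, 4.76 and 4.74 log2 CPM in WT, 4.32, 4.78 and 4.85 in S970A, and 4.31, 4.36 and 4.13 in S970D, where WT replicate 1 lay within the S970D range. Sp100, a partner of PML, was at -0.08 ± 0.17.

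The direction of the difference varied with the length and GC content of the transcripts. Between S970D and WT, the 10 members with the shortest annotated transcripts (655 to 1885 bases) had a median of 0.49 on the log2 scale, with 7 above 0. The 10 longest (3965 to 7417 bases) had a median of -0.64, with all 10 below 0. Across the 45 genes, which share the libraries and are not independent replicates, Spearman's rho of the fold change was -0.57 with length and 0.66 with GC content, and over 15959 genes of the table it was -0.44 and 0.51. Against coding genes of like length (10 bins), 18 members lay below the lower quartile, 22 between the quartiles and 5 above the upper quartile. Those below included Parp9, Parp12, Dtx3l, Trim21, Cmpk2, Rsad2, Ifit1 and Shisa5, and those above were Ifnar2, Oasl1, Tap2, Psmb8 and Lgals3bp. The bins matched length and not GC content, which was 56.3% for Oasl1 and 56.9% for Tap2, against a median of 49.9% in the list.

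After removal of the GC and length trend from each library, some differences nearly vanished and others did not. The fold change moved from 0.73 to 0.02 for Ifitm2, from 0.89 to 0.15 for Bst2, from 0.55 to 0.00 for Ifi27 and from -1.14 to -0.33 for Samd9l. It moved from -1.03 to -1.0 for Parp12, from -0.83 to -0.63 for Trim21, from -0.70 to -1.09 for Shisa5 and from 1.01 to 0.62 for Lgals3bp. The list's median moved from -0.25 to -0.07. With the trend removed and the block, 3 members rose (6.67%, against 14.4% of all genes), namely Ifnar2, Psmb8 and Lgals3bp, and 6 fell (13.3%, against 13.0%), namely Parp9, Parp12, Dtx3l, Trim21, Tapbp and Shisa5. Of these 9, Parp9, Parp12, Dtx3l, Trim21, Psmb8, Lgals3bp and Shisa5 also passed in the fit without S970A replicate 1. That fit kept the trend and used the same S970D and WT libraries, so it is no separate support for these calls. With the trend removed, the calls with the block ended for Cmpk2, Gbp3, Ifit2, Xaf1, Samd9l and Ifi27 as well. Their limma adjusted p-values with the block were then 0.0592, 0.0793, 0.078, 0.0878, 0.286 and 0.991, in that order. What moved transcripts by length and GC content was not tested.

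**Figure D4:**
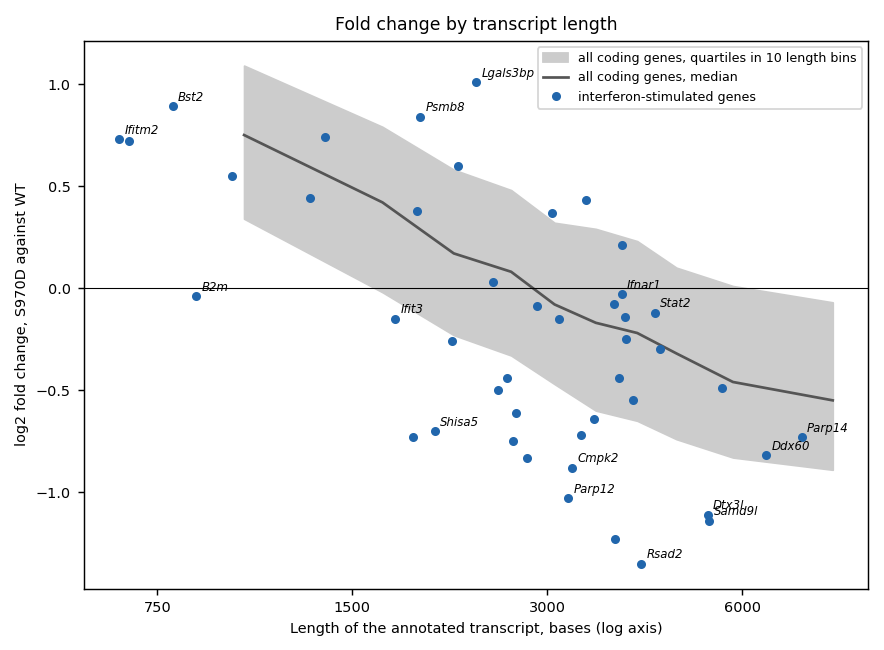
log2 fold change of S970D against WT plotted by the length of the annotated transcript in bases (log axis); points are the 45 interferon-stimulated genes, the line and band are the median and quartiles of all coding genes in 10 length bins. The band falls from a median of 0.75 in the shortest bin to -0.55 in the longest, and Parp12, Rsad2, Cmpk2 and Shisa5 lie below it while Psmb8 and Lgals3bp lie above.

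S970A against WT asks the same of a residue that cannot be phosphorylated. None of the 45 genes passed, nor did any gene of the table (0.0% of genes), with or without S970A replicate 1, and limma adjusted p-values in the list were 0.776 or more. At an unadjusted p under 0.05 the limma fit held 1 member, Irf2, and 1.75% of all genes. Irf2, a transcription factor that opposes IRF1 at interferon targets, held 5.93, 5.79 and 5.89 log2 CPM in WT, 5.59, 5.29 and 5.32 in S970A, and 5.55, 5.67 and 5.64 in S970D. Every S970A library was below every WT library, and S970A replicates 2 and 3 were the lowest of all 9. The difference was -0.47 ± 0.13 (SE; limma adjusted p = 0.776), and -0.56 without S970A replicate 1. The groups did not overlap in 5 members, all lower in S970A (11.1%, against 3.32% of all genes), and in no member that was higher (0 of 45, against 3.1%).

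Those 5 were Irf2, Irf9, Mx2, Gbp2 and Xaf1. Xaf1, a pro-apoptotic gene, held 2.99, 2.70 and 2.56 log2 CPM in WT, 2.49, 2.34 and 2.40 in S970A, and 2.35, 2.39 and 2.18 in S970D, so both mutant groups were below WT. Xaf1 differed by -0.34 ± 0.16 (SE) and Irf9 by -0.32 ± 0.19 between S970A and WT. Rtp4, a chaperone of membrane receptors, held 0.88, 0.25 and -0.08 log2 CPM in WT, -0.89, -0.13 and 0.02 in S970A, and -0.85, -0.03 and -0.27 in S970D, with overlap. Ifitm2 and Parp14, which stood at 0.38 ± 0.21 and -0.39 ± 0.22, moved to 0.15 and -0.22 without S970A replicate 1. The list's median was -0.14, and -0.07 without that library.

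S970A replicate 1 differed from S970A replicates 2 and 3 in the list much as S970D differed from WT. Its value minus the mean of the other two was -1.86 for Rsad2, -1.56 for Dtx3l, -1.45 for Samd9l and -1.16 for Parp12, and 1.32 for Bst2, 1.06 for Lgals3bp and 0.91 for Psmb8. Of the 25 members that differed between S970D and WT by at least 0.5 in size, all 25 had the same sign in this difference within 1 group. That library was singled out for its likeness to the S970D libraries over all genes, so agreement in sign was favoured by the choice. The share of all genes with the same sign was not counted, so the agreement cannot be read as a trait of the list. The median absolute shift was 0.692 in the list and 0.616 over all genes. For each of these 7 genes the difference within S970A was larger in size than that between S970D and WT.

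S970D against S970A compares the residues that do and do not resemble a phosphate. None of the 45 passed in the fit of 9 libraries, nor did any gene (0.0%), and at an unadjusted p under 0.05 the limma fit held 1 member, Parp9, and 6.95% of all genes. Parp9 was at -0.40 ± 0.17 (SE; limma adjusted p = 0.411), Cmpk2 at -0.58 ± 0.26, Gbp3 at -0.39 ± 0.20, Shisa5 at -0.54 ± 0.27, Lgals3bp at 0.67 ± 0.33 and Nmi at 0.46 ± 0.24. Nmi held 4.28, 3.95 and 3.95 log2 CPM in WT, 4.54, 3.87 and 3.72 in S970A, and 4.82, 4.29 and 4.39 in S970D, with S970A replicate 1 inside the S970D range. The groups did not overlap in 1 member, Gbp2, which was lower in S970D (2.22%, against 4.11% of all genes), and in no member that was higher, against 3.96%. Gbp2 is a low gene, with -1.28, -1.21 and -1.23 log2 CPM in S970A and -1.36, -1.39 and -1.36 in S970D, and its difference was -0.13 ± 0.26.

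S970A replicate 1 was singled out because it resembled the S970D libraries, so leaving it out widens the difference between S970D and S970A by construction. Without it, 8 members rose in S970D against S970A (17.8%, against 18.7% of all genes) and 11 fell (24.4%, against 20.8%). The 8 were Nmi, Ifi35, Ifitm2, Bst2, Oasl1, Tap2, Psmb8 and Lgals3bp, and the 11 were Ifit2, Gbp3, Cmpk2, Samd9l, Parp9, Parp12, Dtx3l, Trim21, Trim25, Pml and Shisa5. Dtx3l was then at -1.20 (limma adjusted p = 0.0145) and Lgals3bp at 1.03 (limma adjusted p = 0.0178). This comparison shares the S970D libraries with S970D against WT. The F test for any difference among the 3 forms passed no member and no gene (0.0%), with 9 members and 24.7% of all genes at an unadjusted p under 0.05 in limma. These 9 were Irf2, Ifitm2, Gbp3, Cmpk2, Parp9, Parp12, Parp14, Trim21 and Lgals3bp.

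Other genes of the interferon pathway were the kinases, regulators, sensors and further targets. Of 69 listed symbols 57 had a row. Their median difference between S970D and WT was -0.45 on the log2 scale, with 16 above 0. None passed in the fit of 9 libraries, and 28 (49.1%, against 44.3% of all genes) had an unadjusted p under 0.05 in limma. With the block 10 rose (17.5%, against 22.2%) and 23 fell (40.4%, against 23.3%). After removal of the GC and length trend, and with the block, 4 rose (7.02%, against 14.4%) and 14 fell (24.6%, against 13.0%). Tbk1, the kinase that activates IRF3, held 5.62, 5.87 and 5.91 log2 CPM in WT, 5.10, 5.66 and 5.69 in S970A, and 4.44, 5.24 and 4.72 in S970D, a difference of -1.0 ± 0.24 (SE; limma adjusted p = 0.0756, and 0.00642 with the block). Erap1, the peptidase that trims antigens for class I molecules, was at -1.28 ± 0.31 with the same adjusted p-values. Among these genes, S970A against WT had its smallest p at Uba7, the enzyme that activates ISG15 (-0.75 ± 0.22; limma adjusted p = 0.776), followed by the RNA sensor gene Ddx58 (-0.56 ± 0.25). Uba7 was at 1.66 ± 0.22 in S970D against S970A (limma adjusted p = 0.298), with 0.03, -0.08 and 0.17 log2 CPM in S970A and 1.92, 1.74 and 1.45 in S970D, and Tbk1 was at -0.69 ± 0.24 there (limma adjusted p = 0.411).

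The authors' deposited table also gives part of the genes a cluster colour, and how the clusters were made is not stated in the labels. A colour was given to 19 of the 45 members (42.2%) and to 40.2% of all genes. Turquoise held 9 members (20.0%, against 18.5% of all genes), namely Rsad2, Cmpk2, Parp9, Parp12, Parp14, Dtx3l, Trim21, Trim25 and Shisa5, all lower in S970D than in WT. Blue held 5 (11.1%, against 13.7%), namely Ifi35, Ifitm2, Tap2, Psmb8 and Lgals3bp, all higher in S970D. Brown held Nmi and Bst2, and yellow held Irf2, Samd9l and Xaf1. If the colours were made from these same libraries, they are not independent of the fold changes.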

How the data were processed

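Per the labels' protocols, stranded poly(A) libraries were read for 101 cycles at both ends. Tools listed in the submitters' processing notes, without their roles, are R 3.6.3, Salmon 1.1.0 and bcl2fastq 2.20, and the build is GRCm38. The authors deposited 1 table of log2 CPM and, in other columns, a cluster colour and row order. Which tool, prior count, scaling and low-gene filter gave the log2 values is not given in the sources used here. Steps between low values did not resolve into whole reads, so depth and its precision are unknown.

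All genes were fitted with limma 3.58.1 in R 4.3.3 on the log2 values of 9 libraries, with group as the only term and an intensity trend. Tests were two-sided, p-values were adjusted by Benjamini-Hochberg across all 15977 genes, and passing means an adjusted p under 0.05. The fit was tested on simulated data with independent noise, planted changes larger than any in the list, and no deviant library or pairing. The simulated noise was capped at a spread below that of members such as Rsad2 and Dtx3l. That test therefore cannot show how the fit behaves with such spreads, with a library such as S970A replicate 1 or with a length and GC trend. Deviations of same-numbered S970D and WT libraries correlated at 0.31, 0.11 and 0.16, each above 0.1. They were therefore read as pairs there, and the replicate block stands beside the results. No label says what a number marks. For S970A with WT they were 0.59, 0.07 and 0.49.

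Transcript length and GC content came from GENCODE vM21 (longest coding sequence), for 15959 genes (99.9%). The trend was removed with splines of 5 degrees of freedom. Other alternatives were quantile normalization, a pseudocount of 1 CPM, median centring, genes with a mean log2 CPM of 1 or more, 6 libraries only, no intensity trend, and each library left out.

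The members and lists were chosen with earlier results of these data known. Values in every library are given for the 6 members with the smallest p in each comparison, Stat2, Irf9, Ifnar1, Ifnar2, the most abundant member of each role and the 3 with the largest replicate SD; Ifit1, Dtx3l, Psmb8 and Gbp2 were added after their values were seen. Of the other pathway genes, those with the 2 smallest p in each comparison are named. Beyond these the text names members with their fold changes.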

Additional observations from a re-analysis of the deposited data

How the results depend on the processing

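In S970D against WT, 1 gene and no member passed in the fit of 9 libraries. The counts of genes and members were 7276 and 23 with the replicate block, 6727 and 19 with the 6 libraries compared, and 8472 and 26 without S970A replicate 1 with the block. After removal of the GC and length trend, and with the block, they were 4360 and 9. No gene passed with log2(CPM + 1) or with no intensity trend. Leaving out 1 library at a time gave 0 to 7615 genes and 0 to 22 members, the highest without S970A replicate 1. The list's median log2 fold change of -0.25 became -0.14 with log2(CPM + 1) and with median centring, -0.12 with the filter at a mean of 1 log2 CPM, -0.18 with quantile normalization, and -0.07 with the trend removed, with or without the block; without 1 library it was -0.30 to -0.21. In S970A against WT 0 to 1 genes passed with 1 library left out, and the median of -0.14 ranged from -0.24 to -0.07, and was -0.05 without S970A replicate 1 with the block. In S970D against S970A the median of -0.10 became 0.02 with that filter. In that comparison 0 to 6307 genes and 0 to 19 members passed with 1 library left out, and 5790 and 16 without S970A replicate 1 with the block. The F test passed 4716 genes and 12 members with the block, 1330 and 2 with the trend removed and the block, 7271 and 24 without S970A replicate 1 with the block, and 0 to 6558 genes and 0 to 18 members with 1 library left out. In the fit of 9 libraries the replicate block changed the call of no member in S970A against WT or S970D against S970A. Fold changes of the members with the 6 smallest p in each comparison kept their sign under each alternative run. The unknown depth and the prior count limit what can be said of Ifit3, Ifi44, Oas2, Ddx60 and Gbp2.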
